A study of Mus musculus with 6 samples.

Results

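The genes that make melanin were followed in choroid endothelial cells (ECs) sorted from mouse eyes at P5 and P30. The list named 9 symbols, of which 8 were genes of the 22026 in the deposited tables: Tyr, Tyrp1, Dct, Pmel, Mlana, Mitf, Oca2 and Gpr143. The other symbol, Si, is an older name of Pmel and had no row of its own. They were chosen as genes of pigment cells, which lie in the RPE and the choroid beside the vessels, with earlier results of these data known. Every sample came from 129/B6 mice, with P5 (postnatal day 5) and P30 (postnatal day 30) as the groups and 3 independent isolations in each. Each isolation pooled the RPE/choroid of 14 eyes from 7 animals. ECs carried a fluorescent antibody against VE-Cadherin, their junctional adhesion molecule, that had been injected before death, and flow cytometry picked them out by it. The P30 mice were of both sexes, and the labels give neither the sex of each pool nor the alleles at the pigment genes of this mixed strain. All 6 samples were native cells, with no treatment named beyond anaesthesia and the antibody. The paper states that hypothermia served as anaesthesia at P5, with a smaller antibody dose than at P30. This handling cannot be told apart from age.

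Melanin is made inside melanosomes, organelles related to lysosomes, in the RPE and in melanocytes. Tyrosinase oxidizes tyrosine, and its relatives Tyrp1 and Dct shape the later steps towards black and brown pigment. The melanosome is built on fibrils of Pmel with the help of Mlana, while Oca2 and Gpr143 are membrane proteins that act on its acidity and on its number and size. The transcription factor Mitf switches on many of these genes in pigment cells, but it is also made in macrophages and other cells. In the mouse eye, the RPE fills with pigment before birth and the melanocytes of the choroid do so mostly afterwards. ECs are not known to make melanin.

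Mitf binds the M-box, a motif with the core TCATGTG, and the promoter windows of the 3 enzymes Tyr, Tyrp1 and Dct are shown. Of the 8 genes, 5 had promoter windows in the RefSeq table used (build GRCm38.p6), namely Tyr, Tyrp1, Dct, Oca2 and Mitf, with 7 windows in all, each of 250 bases before and 50 after an annotated start. The 250 bases before the start are given 5′ to 3′ on the strand of the gene, with every copy of TCATGTG, on either strand, in capitals.
Tyr (chr7:87493513-87493762, minus strand): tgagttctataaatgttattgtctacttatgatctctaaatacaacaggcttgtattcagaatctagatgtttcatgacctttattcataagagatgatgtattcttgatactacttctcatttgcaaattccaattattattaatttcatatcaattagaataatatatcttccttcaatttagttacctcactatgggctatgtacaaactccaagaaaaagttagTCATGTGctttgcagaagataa
Tyrp1 (chr4:80833963-80834212, plus strand): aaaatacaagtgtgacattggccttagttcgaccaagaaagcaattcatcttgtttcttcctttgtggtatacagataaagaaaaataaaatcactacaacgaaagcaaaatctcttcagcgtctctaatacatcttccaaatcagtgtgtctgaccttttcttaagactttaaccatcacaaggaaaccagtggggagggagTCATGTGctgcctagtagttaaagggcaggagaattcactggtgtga
Dct (chr14:118052247-118052496, minus strand): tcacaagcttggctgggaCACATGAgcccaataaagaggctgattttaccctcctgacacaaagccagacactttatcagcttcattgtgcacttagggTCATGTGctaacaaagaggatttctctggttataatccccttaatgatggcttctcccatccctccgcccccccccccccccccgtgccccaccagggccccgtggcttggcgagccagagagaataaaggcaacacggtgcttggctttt
In this table's numbering from the start site, the core lay at -22 to -16 in Tyr, at -47 to -41 in Tyrp1, and at -151 to -145 in Dct, which held it again on the opposite strand at -232 to -226. The core, searched on both strands, was in 3 of the 7 windows, against 3.77% of all 32851 windows of that length. These were the 3 windows shown, and the windows of Oca2 and Mitf did not hold it. The wider E-box CANNTG, which takes in the core, was in 5 of the 7 windows, against 72.3% of all windows. Mitf itself had 3 of the 7 windows. These matches describe the letters and were not tested as sites. The motif was picked as one bound by Mitf, which switches on many of these genes, so its share here is no independent sign.

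The unit was FPKM, in which fragments are scaled to the length of the transcript and to the reads of the sample, so levels of different genes could be set side by side per length. FPKM summed to between 1432700 and 1734639 per sample, figures set by the scaling. Read counts were not used here, and depth is unknown. EC markers were high in every isolation, and the summed FPKM of 10 EC genes, led by Emcn and Cldn5, was 19387 to 21422 at P5 and 25150 to 29888 at P30. In bulk samples, fewer cells of a type and less RNA per cell cannot be told apart. P30 isolation 3 stood apart from the other P30 isolations in the genes described here, as P5 isolation 1 did from the other P5 isolations, and results are therefore given with and without them.

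All 3 enzymes were present at both ages. Dct (chromosome 14, 118412014 to 118451468 of mm9), dopachrome tautomerase, had an FPKM of 151, 37.2 and 32.2 in P5 isolations 1, 2 and 3 and of 543, 475 and 49.9 in P30 isolations 1, 2 and 3. P30 isolation 3 thus lay below P5 isolation 1, and the ages overlapped. Its P5 mean of 73.3 ± 66.9 compared with a P30 mean of 356 ± 267 (SD, n = 3). Tyrp1 (chromosome 4, 80480027 to 80497623) had 77.6, 20.9 and 13.9 at P5 and 216, 187 and 27.5 at P30, in the same order of isolations as Dct. Tyr (chromosome 7, 94574910 to 94641943), which encodes the rate-limiting tyrosinase, was lowest of the 3 per length, with 11.1, 3.74 and 2.17 at P5 and 28.8, 30.1 and 3.98 at P30. In each enzyme the first 2 P30 isolations were above all P5 isolations and the last one was between P5 isolations 1 and 2.

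The structural genes of the melanosome had the same split. Pmel (chromosome 10, 128143314 to 128157294), whose protein forms the fibrils on which melanin is laid down, had 185, 40.2 and 38.5 at P5 and 290.5, 273 and 23.6 at P30. Its FPKM in P30 isolation 3 was the lowest of all 6 samples. Mlana (chromosome 19, 29772411 to 29782938), a partner of Pmel in early melanosomes, had 31.9, 15.9 and 10.3 at P5 and 172, 154 and 14.96 at P30. Its mean was 19.4 ± 11.2 at P5 and 114 ± 85.9 at P30 (SD, n = 3), and P30 isolation 3 lay between P5 isolations 2 and 3.

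The 2 membrane proteins were near the lower end of the scale. Gpr143 (chromosome X, 149216464 to 149243189), a receptor of the melanosome membrane, had 4.6, 1.27 and 2.19 at P5 and 23.6, 9.09 and 3.48 at P30. Here P30 isolation 1 was well above isolation 2, unlike in the enzymes. Oca2 (chromosome 7, 63495130 to 63791887), which takes part in chloride transport and the acidity of the melanosome, had 3.42, 0.390 and 0.470 at P5 and 3.35, 8.54 and 0.950 at P30, and its P30 isolation 2 alone was above every P5 isolation. With a mean of 4.28 ± 3.88 (SD, n = 3) at P30 it was below the minimum of 5 set for the fit. The difference of its means, on the scale of log2(FPKM + 1), was 1.05 (exact two-sided permutation test, p = 0.300).

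Mitf (chromosome 6, 97757052 to 97971352) varied least between isolations. It had 11.5, 7.54 and 5.43 at P5 and 19.4, 16.5 and 11.9 at P30. It was the only member whose ages did not overlap, with its lowest P30 value, 11.9, just over its highest P5 value, 11.5. Of the genes tested, 22.0% had all P30 values above all P5 values, and 33.0% had them below.

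**Figure D1:**
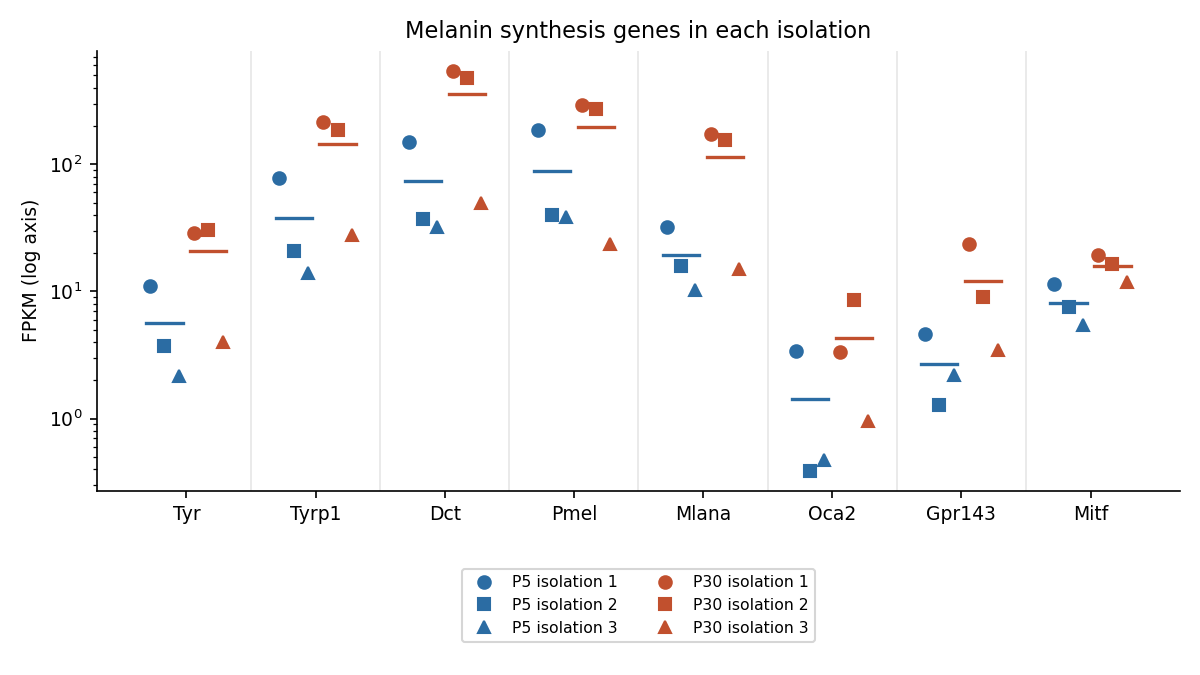
FPKM (log axis) of the 8 melanin genes in each of the 6 isolations, with P5 in blue, P30 in red, the symbol giving the isolation number and a line at the mean of each age. In 7 genes P30 isolation 3 lies below P5 isolation 1, and the ages separate in Mitf alone.

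Whether the genes differed with age was tested with limma over the 12481 genes whose mean FPKM reached 5 at either age, 7 of the 8 melanin genes among them. To be called, a gene needed a Benjamini-Hochberg adjusted p under 0.01 together with a 2-fold or larger ratio of mean FPKM + 1. Of all genes tested, 735 were called higher at P30 and 726 higher at P5, or 613 and 1041 with samples rescaled to the same total. Of the 7, 0 were called higher at P30, against 5.89% of the genes tested, and 0 higher at P5, against 5.82%. At an unadjusted p under 0.05 in limma there were 2, Mitf and Gpr143. The share of all genes tested under this looser limit was not taken. The count of 2 therefore has no background and is no sign of an age effect by itself. All 8 means were nevertheless higher at P30, and the median change of the 7, as log2 of FPKM + 1, was 1.59, against -0.10 over all genes tested. The change was 2.03 for Dct (SE 0.97, adjusted p = 0.133 from limma), 2.03 for Mlana (SE 0.90, adjusted p = 0.110 from limma) and 1.83 for Tyrp1 (SE 0.88, adjusted p = 0.136 from limma). The 95% interval of Dct ran from -0.23 to 4.29, and so took in both no change and a large rise. Tyr changed by 1.56 (SE 0.80, adjusted p = 0.160 from limma) and Gpr143 by 1.59 (SE 0.67, adjusted p = 0.0962 from limma). Pmel had the smallest change, 0.90 (SE 1.02, adjusted p = 0.509 from limma). Mitf changed by 0.92 (SE 0.32, adjusted p = 0.0587 from limma), with the narrowest interval, 0.16 to 1.67.

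The changes of 6 of the 7 genes, Mitf excepted, were largest with P30 isolation 3 left out. Without it, Mlana was called higher at P30, with a change of 3.15 (adjusted p = 0.00282 from limma), while Dct reached 3.14 (adjusted p = 0.0110 from limma) and Pmel 2.07 (adjusted p = 0.0487 from limma). In that fit, 849 of 12539 genes were called higher at P30. P30 isolation 3 was singled out for its low values in these same genes, so leaving it out raises their P30 means by construction. The call of Mlana is therefore no separate sign of an age effect. Leaving out any other single isolation gave 0 calls among the melanin genes. Without P30 isolation 1 the change of Pmel was 0.29. Without P5 isolation 1 it was 1.63, that of Dct 2.73 and that of Mlana 2.45, with adjusted p of 0.280, 0.0867 and 0.120 from limma.

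**Figure D2:**
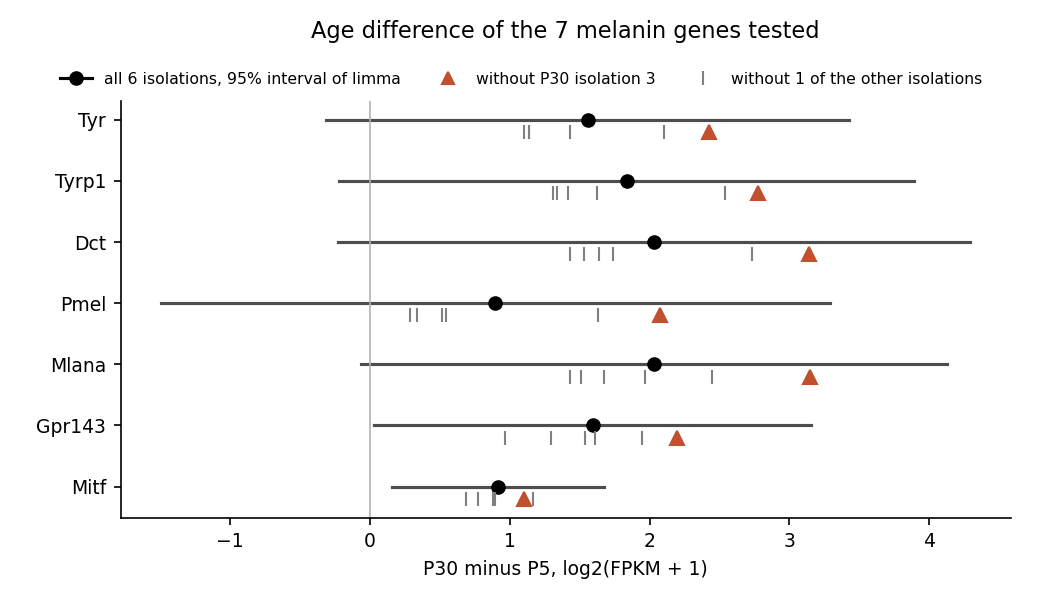
Change from P5 to P30 in log2(FPKM + 1) for the 7 melanin genes tested, with the 95% interval of limma (black), the value without P30 isolation 3 (red triangles) and the values without each of the other isolations (grey ticks). The intervals of Tyr, Tyrp1, Dct, Pmel and Mlana cross 0, and in 6 of 7 genes the value without P30 isolation 3 is the highest.

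Isolations of the same age differed more in these genes than in most. The SD of log2(FPKM + 1) between P30 isolations was 2.03 for Pmel, 1.94 for Mlana and 1.92 for Dct, against a median of 0.26 over all genes tested. At P5 it was 1.28 for Pmel, 1.26 for Tyrp1 and 1.21 for Dct, against a median of 0.13. The SD of Dct was higher than that of 99.4% of the genes at P5 and of 98.4% at P30. Mitf was less variable, with an SD of 0.33 at P30, higher than that of 63.2% of the genes.

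The order of isolations was shared. P5 isolation 1 was the highest of its age in 8 of 8 melanin genes, and P30 isolation 3 the lowest of its age in 8 of 8. The shares of all genes tested with these ranks were not taken. Neither rank was particular to these genes. P5 isolation 1 was also highest in 8 of 8 RPE and 11 of 11 pericyte and smooth muscle markers, but in 2 of 6 fibroblast markers. P30 isolation 3 was lowest in 10 of 10 photoreceptor markers, but in 0 of 8 macrophage and leukocyte markers. P30 isolation 1 exceeded isolation 3 by a median of 2.93 in log2(FPKM + 1) over the 7 genes tested, from 0.66 for Mitf to 3.57 for Pmel, against a median of 0 and a 95th percentile of 1.21 over all genes tested. P30 isolations 1 and 2 were close, with a median difference of 0.19 over the 7 genes. P5 isolation 1 exceeded isolation 3 by a median of 1.93, and all 7 genes were above the 95th percentile of 0.77. Between P5 isolations 2 and 3 the median difference was 0.41. These are descriptions of 3 isolations an age, and the genes are not independent of each other.

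**Figure D3:**
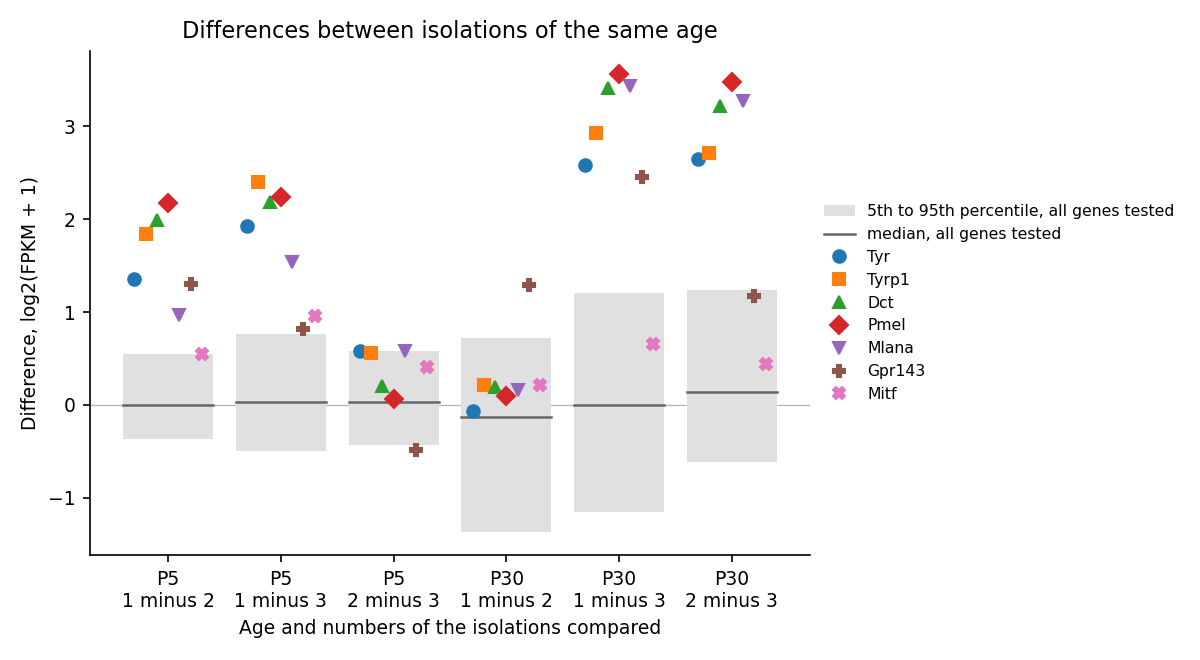
Differences in log2(FPKM + 1) between isolations of the same age for the 7 melanin genes tested (symbols), over the 5th to 95th percentile (grey band) and median (line) of all 12481 genes tested. All 7 genes lie above the band for P5 isolation 1 against isolations 2 and 3, and 6 of 7 for P30 isolation 1 against 3.

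The proportions between the 3 enzymes were steadier than their levels. The ratio of Tyr to Tyrp1, enzymes of the same family, was 0.143, 0.179 and 0.157 at P5 and 0.133, 0.161 and 0.145 at P30, so that the highest was 1.34 times the lowest of the 6. The ratio of Tyrp1 to Dct differed by 1.43 times at most, and that of Tyr to Dct by 1.90 times. Pairs with Gpr143 or Oca2 varied more, by 5.95 times for Pmel to Gpr143 and 6.62 times for Oca2 to Gpr143. The widest of all pairs was Mitf to Oca2, at 9.98 times. Mitf kept no such proportion, and the ratio of Dct to Mitf differed by 6.86 times, from 4.19 in P30 isolation 3 to 28.7 in P30 isolation 2.

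The proportion of Pmel to Dct, Tyrp1, Tyr and Mlana did not overlap between ages, although the levels of these genes did. The ratio of Dct to Pmel was 0.812, 0.926 and 0.838 at P5 and 1.87, 1.74 and 2.12 at P30, with the highest in P30 isolation 3. Pmel made up 35.7% ± 3.75 of the summed FPKM of the 8 genes at P5 and 21.1% ± 3.37 at P30, and Dct 30.5% ± 1.19 and 39.9% ± 2.86 (SD, n = 3). Of the 28 pairs of melanin genes, 4 had ratios that did not overlap between ages. These were the ratios of Pmel to Dct, Tyrp1, Tyr and Mlana, and in each Pmel was lower at P30. The difference between ages, in log2, was -1.18 for Pmel to Mlana, and 1.15, 0.97 and 0.85 for Dct, Tyrp1 and Tyr to Pmel. The exact two-sided permutation test gave p = 0.1 for each, the smallest that 3 isolations against 3 allow, and an adjusted p of 0.700 over the 28 pairs, so none passed. Of the genes above 0 in every isolation, 3.98% had ratios to Dct that were lower in all P30 than in all P5 isolations. A gene of steady level overlaps in this ratio because Dct did, so the share is no fair scale for genes that vary with Dct. No such share was taken for ratios to Tyrp1, Tyr or Mlana. Pmel was singled out after its values had been seen.

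**Figure D4:**
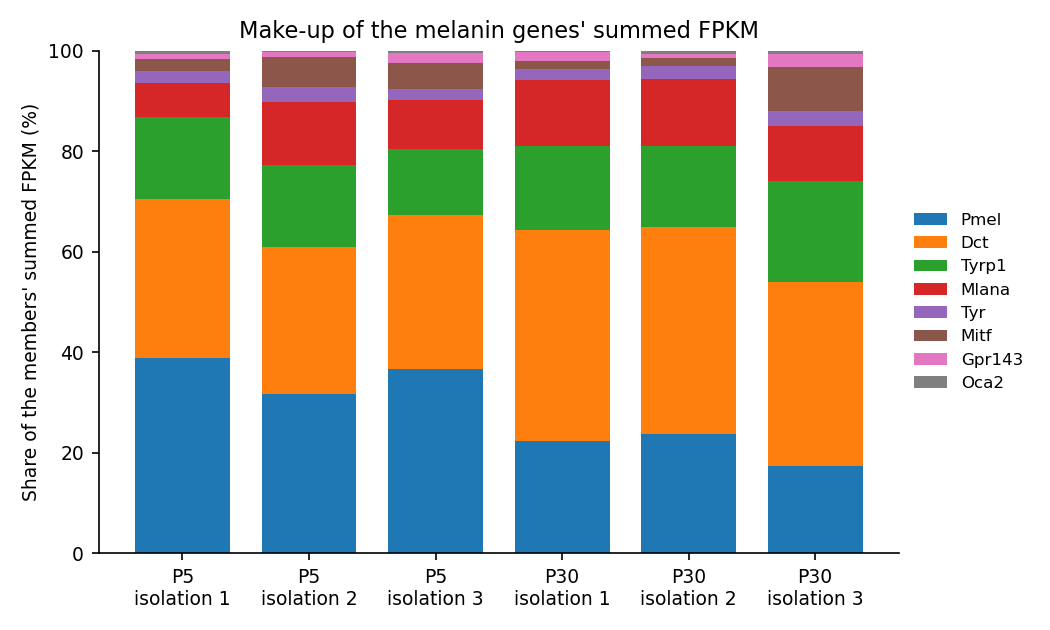
Share of each melanin gene in the summed FPKM of the 8 genes (%), in each isolation. Pmel takes 31.6% to 38.9% in the P5 isolations and 17.3% to 23.6% in the P30 isolations, and Mitf takes 8.75% in P30 isolation 3.

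Markers of other cells of the RPE/choroid were summed in the same way. The melanin genes summed to 476, 127 and 105 FPKM in P5 isolations 1, 2 and 3 and to 1297, 1152 and 136 in P30 isolations 1, 2 and 3. Dct alone was 9.78%, 2.21% and 2.0% of the FPKM of the EC gene Pecam1 at P5 and 34.5%, 32.9% and 4.01% at P30. The 8 RPE markers, genes of the visual cycle and of retinoid transport among them, summed to 149, 68.3 and 73.1 at P5 and to 3854, 2139 and 503 at P30. Their sum had the melanin genes' order at P30. P30 isolation 3 was the lowest of its age in 7 of the 8, but not in Best1, with 4.54, 4.18 and 4.51. All 8 were above P5 in every P30 isolation, against 22.0% of the genes tested. Of the 7 tested, 5 were called higher at P30, against 5.89% of all genes tested. Rgr, an RPE opsin, had 841, 566 and 105 at P30 against 10.1 ± 5.95 (SD, n = 3) at P5, and Ttr, a carrier of thyroid hormone and retinol, had 1966, 962 and 227 against 58.2 ± 27.5. Rpe65, the isomerase of the visual cycle, was listed at 0 in P5 isolations 2 and 3, in which Dct had 37.2 and 32.2. No other RPE marker was at 0 in these isolations, in which Ttr had 41.2 and 43.5 and Rgr 7.41 and 5.95. The summed melanin genes were 3.20, 1.86 and 1.44 times the summed RPE markers at P5, and 0.337, 0.539 and 0.271 times at P30, without overlap. The ratio of Tyrp1 to Rgr was 4.59, 2.83 and 2.33 at P5 and 0.257, 0.330 and 0.261 at P30. P30 isolation 3, low in both lists, was within the range of the other P30 isolations in this last ratio.

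The photoreceptor markers summed to 11.3, 2.70 and 14.9 at P5 and to 409, 268 and 41.8 at P30, again with P30 isolation 3 lowest, in 10 of 10 genes. Of this list Gnat1, the transducin subunit of rods, had a mean of 61.5 ± 41.4 (SD, n = 3) at P30. Markers of Schwann cells, which share a neural crest origin with melanocytes, summed to 136, 95.4 and 64.6 at P5 and to 506, 407 and 191 at P30, the same order as the melanin genes at both ages. Of these, Mbp, a myelin protein, had 112, 46.3 and 16.8 at P30, and Egr2, a regulator of myelin genes, 175, 263 and 121. Pericyte and smooth muscle markers, led by Rgs5 and Pdgfrb, had another order at P30, with sums of 2230.2, 7139 and 4057, and were highest in P5 isolation 1, at 1898. Fibroblast markers, led by Dcn and Col3a1, summed to between 725 and 1193 at P5 and to 1777, 4488 and 2380.2 at P30. Macrophage and leukocyte markers, led by Lyz2 and Cd68, summed to between 623 and 912 at P5 and to between 323 and 840 at P30. Of these 8 genes, 4 were called higher at P5 (Ptprc, Aif1, Adgre1 and Fcgr1, with log2 changes of -1.67, -2.59, -2.39 and -2.31) and 0 higher at P30, while Lyz2 had a log2 change of 0.23 and did not pass. Mitf, which macrophages also make, had the higher mean at P30, and the part of these cells in its level was not tested. The part of RPE, melanocyte and other cells in the other melanin values was not tested either.

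**Figure D5:**
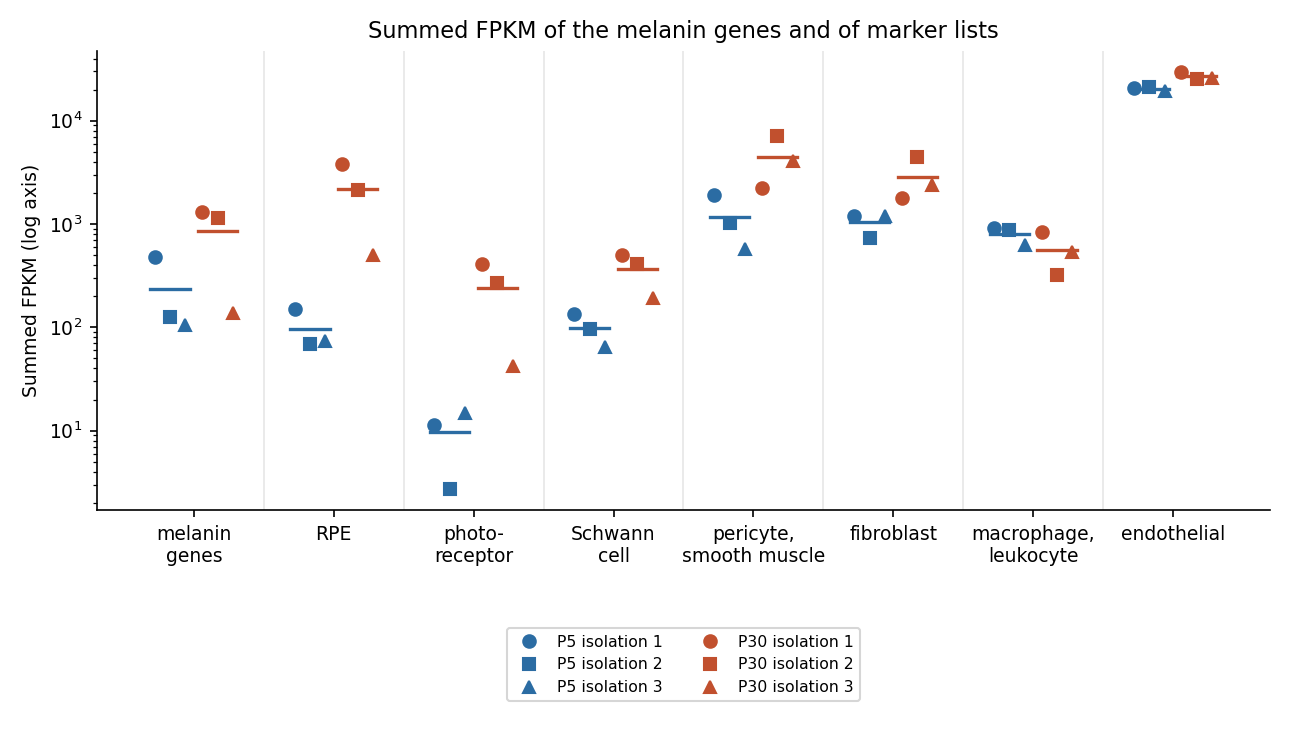
Summed FPKM (log axis) of the 8 melanin genes and of 7 lists of cell type markers in each isolation, with P5 in blue, P30 in red and a line at the mean of each age. The melanin genes of P30 isolation 3, at 136, lie among the P5 isolations, while its RPE and photoreceptor markers, at 503 and 41.8, lie above all of them.

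Genes that serve the melanosome beyond the 8 were counted by role, with 5.89% of all genes tested called higher at P30 and 5.82% higher at P5 as the background to each count. Of 7 transporters, 1 was higher at P5 and 0 at P30. Mfsd12 (listed under its older name F630110N24Rik), which brings cysteine into the melanosome, fell from 27.4 ± 2.03 to 12.2 ± 0.130 FPKM (SD, n = 3; log2 change -1.11, adjusted p = 0.00273 from limma). The pigment cell transporters Slc24a5 and Slc45a2 were split as the melanin genes were, with 65.4, 54.4 and 16.5 at P30 for Slc24a5 and 11.5, 7.75 and 1.04 for Slc45a2, and neither passed (adjusted p = 0.143 and 0.464 from limma). The cation channel Tpcn2 had 35.7 ± 1.44 at P5 and 18.2 ± 8.47 at P30 (adjusted p = 0.0529 from limma).

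Of 22 genes that sort cargo to the melanosome and to other lysosome-related organelles, 1 was higher at P5 and 0 at P30, with a median log2 change of -0.11, close to the -0.10 of all genes tested. Rab32, a small GTPase of this route, fell from 25.9 ± 0.854 to 8.48 ± 1.72 (SD, n = 3; log2 change -1.52, adjusted p = 0.00195 from limma). Its relative Rab38, chosen after its values had been seen, had 10.5, 4.15 and 3.52 at P5 and 11.6, 6.76 and 1.58 at P30, with the order of isolations of the melanin genes. The BLOC-1 subunit Bloc1s3 had a log2 change of 1.13 and Bloc1s4 (listed as Cno) of 0.82, while Hps3 of BLOC-2 had -0.70, and none of them met both limits.

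Of 7 genes that move melanosomes along the cytoskeleton, 1 was higher at P30 and 0 at P5. Myrip, which links Rab27a to myosin VIIa, rose from 14.9, 16.1 and 10.6 to 84.1, 67.4 and 80.7 (log2 change 2.41, SE 0.19, adjusted p = 0.000261 from limma). Its level in P30 isolation 3 was close to that in isolation 1, unlike the levels of the pigment enzymes. Rab27a had 46.1, 29.0 and 12.9 at P30 and 14.8 ± 4.49 at P5, and did not pass (adjusted p = 0.185 from limma). Mlph, which joins Rab27a to myosin Va, and the Rab27 effector Sytl2 had log2 changes of 1.56 and 0.78, without passing.

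Of 11 signals and regulators of melanocytes, 6 were tested, with 2 called higher at P30 and 0 called higher at P5. The ligand Edn3, which supports melanocyte precursors through the receptor Ednrb, rose from 67.1 ± 21.0 to 720.1 ± 359 (SD, n = 3; log2 change 3.32, adjusted p = 0.000869 from limma). Its 3 P30 values, 376, 1093 and 692, did not have the order of the melanin genes. They had the order of 2 marker sums, that of pericytes and smooth muscle and that of fibroblasts. The cells that gave the Edn3 level were not tested. Lef1, a transcription factor of Wnt signalling, rose to 122, 126 and 133 (log2 change 2.38, adjusted p = 0.00521 from limma). Sox10, which acts in melanocytes and Schwann cells and activates Mitf, had 4.62, 1.70 and 1.07 at P5 and 14.2, 12.4 and 8.96 at P30 (log2 change 2.0, adjusted p = 0.0128 from limma), and the receptor Kit 34.6 ± 7.98 and 14.2 ± 7.94 (log2 change -1.33, adjusted p = 0.0263 from limma). Mc1r, the melanocortin receptor of melanocytes, was at most 0.580 in any isolation.

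Of 7 relatives of Mitf and transcription factors of the RPE, 0 were called in limma. Otx2 had 7.15, 1.08 and 6.78 at P5 and 28.6, 24.2 and 4.03 at P30, and Pax6 had 5.27, 0.930 and 0.540 at P5 and 11.9 and 12.8 in P30 isolations 1 and 2, while it was listed at 0 in isolation 3. Tfeb, a regulator of lysosomes (listed as Tcfeb), had 39.1 ± 3.66 and 66.7 ± 11.9 (log2 change 0.75, adjusted p = 0.0109 from limma), and Tfec (listed as Tcfec) had 9.21 ± 3.29 and 3.38 ± 1.72 (log2 change -1.25, adjusted p = 0.0695 from limma).

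The genes whose levels ran most like those of a member were sought over all genes tested, by the root mean square difference between profiles of log2(FPKM + 1), each centred on its mean over the 6 isolations. The nearest to Dct was Tyrp1, at 0.22, then Trpm1, a channel of melanocytes and bipolar cells, at 0.29, and Mlana, at 0.30. Tyrp1 had Dct, Tyr and Trpm1 as its nearest 3, and Tyr had Tbx1, Tyrp1 and Syt4. Trpm1 had 30.0, 3.59 and 3.62 at P5 and 60.02, 56.0 and 5.68 at P30. The nearest to Mlana were Dct, Pisd-ps3 and Slc39a12, and to Pmel they were Pax6, Pcp4 and Rpl38. The nearest to Gpr143 were Gsta1, Tmem72 and 4833418N02Rik, and to Mitf they were H2-Gs10, Tspyl4 and Pcdhb13. No other member was nearer to Mitf than 0.68. Some of the genes named were near the floor. Gsta1 and Pcp4 were listed at 0 in P5 isolations 2 and 3, Pcp4 also in P30 isolation 3, and Slc39a12 in P5 isolation 3. Depth is unknown, so how far such low values set the likeness was not tested.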

How the data were processed

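RNA of sorted choroid ECs was sequenced by the authors on an Illumina HiSeq2000 from TruSeq libraries, and reads were aligned to mm9 with TopHat at default settings. The submitters' processing notes also name CASAVA 1.8.2 and FastQC. The deposited values are FPKM per gene symbol, calculated by the authors in CuffLinks with GC and upper quartile normalization. Versions of TopHat and CuffLinks and the gene annotation are not given in the sources used here. The authors' own test used read counts, which were not used here. Ratios of FPKM values under 1 between samples did not pile up at a single value (at most 6.77% in a bin of 0.05 in log2), so that whole reads were not recovered and no interval for depth is given.

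From the deposited FPKM, log2(FPKM + 1) was compared between 3 P5 and 3 P30 isolations with limma 3.58.1 (trend) in R 4.3.3, unblocked, on genes reaching a mean of 5 at either age. The p-values of limma set the age difference against the spread between these isolations, which limma estimates partly from all genes tested. Other values used Python 3.11.15 and scipy 1.17.1. The fit was checked on simulated data in which every gene had the same spread and changes were planted in genes of higher level. Most melanin genes varied more between isolations, so the check does not show how readily they would be called. Gene positions are from GENCODE vM1 (mm9) and promoters from RefSeq (GRCm38.p6). Members and lists were chosen with earlier results of these data known. Named were all members, the 4 largest absolute changes in each pathway list, the 2 highest P30 means in each marker list (of which 1 is not reported here) and the 3 nearest profiles of each member, with Rab38, Rpe65, Mc1r, Pecam1 and 4 leukocyte markers added after their values had been seen. Alternatives were other pseudocounts and minima, quantile and total scaling, no trend, a looser adjusted p, a replicate block and each isolation left out in turn.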

Additional observations from a re-analysis of the deposited data

How the results depend on the processing

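The count of melanin genes called stayed at 0 in either direction under the other pseudocounts (0.1 and 5), minima (1, 10 and none), scalings, the fit without trend and an adjusted p under 0.05. All 8 genes kept a higher P30 mean under every alternative, also without each isolation. Rescaling each sample to the same total moved the median log2 change of all genes from -0.10 to -0.27 and the calls from 735 higher at P30 and 726 higher at P5 to 613 and 1041, while the lowest change of a melanin gene was 0.73. An adjusted p under 0.05 gave 1130 genes higher at P30. Without 1 isolation, the genes called numbered 396 to 849 higher at P30 and 291 to 754 higher at P5, and the melanin genes called higher at P30 numbered 0 to 1 (Mlana, without P30 isolation 3). Genes higher at P30 were 404 without P5 isolation 2 and 396 without P5 isolation 3, and genes higher at P5 were 427, 291 and 297 without P5 isolations 1, 2 and 3. The Pmel to Dct ratio (alternatives chosen after seeing the data) differed between ages by -1.15 in log2, and by -1.22 to -1.07 without 1 isolation. When isolations were blocked by replicate number, 585 genes had higher P30 levels and 524 had higher P5 levels, with 0 melanin genes among them, at adjusted p between 0.0202 and 0.278 (limma). The SE of each melanin gene tested fell under the block, from 0.88 to 0.40 for Tyrp1 and from 0.32 to 0.28 for Mitf. Over all genes tested, same-numbered isolations deviated from their age means with a mean correlation of -0.0609. With 3 isolations an age, this cannot show whether a number marks a shared day or litter, which the labels do not say. Depth is unknown, so the counting error of low values cannot be given.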

Other observations

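Asip, the agouti signal that turns melanocytes to yellow pigment, was listed at 0 in 5 isolations (under its older symbol a) and had an FPKM of 8.79 in P30 isolation 1. Pax3, a melanocyte regulator upstream of Mitf, was listed at 0 in 5 isolations and had 1.29 in P30 isolation 2. Erbb3, a receptor of neural crest cells, had 1.77, 0.530 and 0.290 in P5 isolations 1, 2 and 3 and 6.39, 1.90 and 2.31 in P30 isolations 1, 2 and 3. These values were too low for the fit and were chosen after they had been seen.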
